A study of Mus musculus with 12 samples.

Results

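Gap junctions and tight junctions are the contacts that couple and seal liver epithelium, and 9 of their genes were followed here across 4 groups of mouse liver cell cultures. The genes were the connexins Gjb1, Gjb2 and Gja1, the claudins Cldn1, Cldn2, Cldn3, Cldn7 and Cldn14, and occludin (Ocln). They were taken by symbol as 9 of the 53599 genes of a table of RNA-seq read counts, whatever their values, and all 9 were among the 14798 genes that passed a filter on low counts.

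Connexins assemble into hexameric half-channels, and half-channels of neighbouring cells dock to form a gap junction that passes ions and small metabolites. Hepatocytes are known for Gjb1 and Gjb2, whereas Gja1 is the connexin of many non-parenchymal and dividing cells. Tight junctions run as strands of claudins around the apical border, which in hepatocytes is the bile canaliculus, and separate bile from blood. Some claudins tighten the strand, and others, such as Cldn2, form pores for cations and water, while occludin is a four-pass membrane protein of the same strands that binds the cytoplasmic scaffold.

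The series asks how far these cells move between hepatocyte and biliary identity. Its 12 libraries comprised 3 replicates each of hepCLiP 3D, hepCLiP 2D, bilCLiP 3D and bilCLiP 2D cultures. Hepatocytes gave rise to the hepCLiP cells and biliary epithelium to the bilCLiP cells, and both were held in small hepatocyte medium with Y-27632 (a kinase inhibitor), A83-01 (a TGF-beta receptor inhibitor) and CHIR99021 (a GSK3 inhibitor). In 3D, aggregates were formed in microwells over 3 days without serum and then floated for 6 to 8 days with oncostatin M at 10 ng/ml. The 2D cultures grew on collagen with 10% serum and no oncostatin M. Geometry, serum, oncostatin M and time in culture therefore differed together and cannot be told apart. The reporter genotype in the labels was RosaConfetti for hepCLiP replicates 1 and 3, and RosaYFP for hepCLiP replicate 2 and all bilCLiP samples. Sample titles set the groups, although the treatment tags of hepCLiP 2D replicate 3 and of all 3 bilCLiP 3D samples name the opposite culture. Whether replicates were separate animals is not stated in the labels, and p-values therefore measure the spread among these samples.

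Libraries held 16142365 to 21253382 counts, and Pearson's r across genes was 0.958 to 0.978 between libraries within a group. Summed hepatocyte markers (7 genes) were 79210 to 128100 CPM (depth-scaled counts, here on TMM library sizes) in hepCLiP 3D and 4258 to 6551 CPM in hepCLiP 2D. In bilCLiP they were 51810 to 82470 CPM in 3D and 2610 to 5106 CPM in 2D. Summed biliary markers (6 genes) were 11350 to 15680 CPM in hepCLiP 3D and 3617 to 6564 CPM in hepCLiP 2D, and 13730 to 33340 CPM in bilCLiP 3D and 6060 to 10910 CPM in bilCLiP 2D. In 3D nearly all of that sum was Spp1, which was called higher in 3D in both origins (13680 ± 2288 CPM in hepCLiP 3D and 2693 ± 1468 CPM in hepCLiP 2D). Spp1 was also the largest of the 6 in every 2D library, but it made up less of the sum there. In hepCLiP 2D replicate 3 it had 1233 CPM, beside 1005 CPM of Krt19, 836 CPM of Krt7 and 504 CPM of Tspan8. Krt19 and Tspan8 fell in both origins and Krt7 in hepCLiP, whereas Epcam and Sox9 were not called. Krt19 had 8.74 ± 9.03 CPM in hepCLiP 3D and 860 ± 337 CPM in hepCLiP 2D, and 5.32 ± 5.88 CPM in bilCLiP 3D and 694 ± 295 CPM in bilCLiP 2D. Of 5 mesothelial markers only Msln reached 1 CPM on average in a group, and of 7 fibroblast markers only Dcn did. The mesothelial sum was 5.57 to 26.1 CPM in hepCLiP 3D and 334 to 989 CPM in hepCLiP 2D, and 7.97 to 27.9 CPM in bilCLiP 3D and 547 to 867 CPM in bilCLiP 2D, with Upk3b and Lrrn4 at 0 in both 3D groups. The 6 endothelial markers summed to at most 3.66 CPM and the 5 macrophage markers to at most 19.5 CPM in any library. In these bulk samples, fewer cells of a type and less RNA per cell cannot be told apart.

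Upstream sequence is shown for the 4 genes whose rise with 3D culture was largest, to let a reader see what lies before their annotated starts. Each line gives the 250 bases before a RefSeq transcript start (GRCm38.p6), 5′ to 3′ on the gene's strand. Capitals mark GTTAAT, a half-site of the hepatic factor HNF1, where a search of both strands found it. The lines are Gjb1 at chrX:101376985-101377234 (plus strand, the second of 4 RefSeq starts), Gjb2 at chr14:57104703-57104952 (minus), Cldn1 at chr16:26371840-26372089 (minus, its last 2 bases lying in a GENCODE exon) and Cldn14 at chr16:94008838-94009087 (minus, the first of 3 starts).
Gjb1: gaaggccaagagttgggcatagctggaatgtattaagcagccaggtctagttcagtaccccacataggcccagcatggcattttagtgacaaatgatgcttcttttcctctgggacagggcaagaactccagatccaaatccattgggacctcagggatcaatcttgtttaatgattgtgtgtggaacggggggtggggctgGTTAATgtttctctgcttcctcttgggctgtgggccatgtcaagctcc
Gjb2: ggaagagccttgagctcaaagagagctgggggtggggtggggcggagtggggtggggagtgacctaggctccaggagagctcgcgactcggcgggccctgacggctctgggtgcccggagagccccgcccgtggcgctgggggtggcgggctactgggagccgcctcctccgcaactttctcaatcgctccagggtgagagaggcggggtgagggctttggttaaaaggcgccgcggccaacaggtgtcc
Cldn1: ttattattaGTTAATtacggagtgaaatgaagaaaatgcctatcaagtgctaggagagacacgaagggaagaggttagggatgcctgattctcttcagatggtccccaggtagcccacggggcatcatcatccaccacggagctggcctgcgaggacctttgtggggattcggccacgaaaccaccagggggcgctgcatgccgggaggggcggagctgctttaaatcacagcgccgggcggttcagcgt
Cldn14: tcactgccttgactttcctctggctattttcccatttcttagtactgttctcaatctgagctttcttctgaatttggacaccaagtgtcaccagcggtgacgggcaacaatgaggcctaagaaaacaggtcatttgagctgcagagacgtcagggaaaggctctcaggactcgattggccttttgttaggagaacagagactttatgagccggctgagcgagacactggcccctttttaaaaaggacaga

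The half-site lay 48 bases before the start in the Gjb1 window and 241 bases before it in the Cldn1 window, and these letters were absent from the Gjb2 and Cldn14 windows shown. It was found in 3 of the 16 RefSeq windows of the 9 genes, against 6.43% of all 32851 windows of this length. The other was a Cldn14 window that lies wholly inside an exon. The Gjb1 window shown was the only Gjb1 window with the half-site, and its start is not a GENCODE transcript start. TATAAA, the TATA box, was found before the fourth Gjb1 start and before Cldn2, and in 12.4% of all windows. Neither CAAAGTCCA, a motif of HNF4, nor TTCCNGGAA, a STAT motif, was found in any of the 16, and they occur in only 0.384% and 0.913% of all windows. GGAATG, a TEAD motif, was found in 3 of the 16 (12.6% of all windows), CAGGTG, a Snail E-box, in 5 (17.2%) and CCAAT in 6 (33.9%). A match is a description of letters, and which start was used cannot be read from the counts.

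Of the 9 junction genes 5 rose in 3D culture in both origins. In hepCLiP 5 genes were called higher and 0 lower at a Benjamini-Hochberg adjusted p below 0.05 in edgeR's quasi-likelihood test, when 34.7% of all genes tested were called, 16.9% higher and 17.9% lower. In bilCLiP 5 were called higher and 1 lower, against 30.3% of all genes called, 15.8% higher and 14.5% lower. The 5 were Gjb1, Gjb2, Cldn1, Cldn14 and Ocln in each origin, and the 1 lower gene was Cldn2. The median log2 fold change of the 9 genes was 2.08 in hepCLiP and 2.88 in bilCLiP, beside -0.06 and -0.002 over all genes tested. In each origin the libraries of the 2 cultures did not overlap for 6 of the 9 genes, as was the case for 46.9% of all genes in hepCLiP and 49.1% in bilCLiP.

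**Figure D1:**
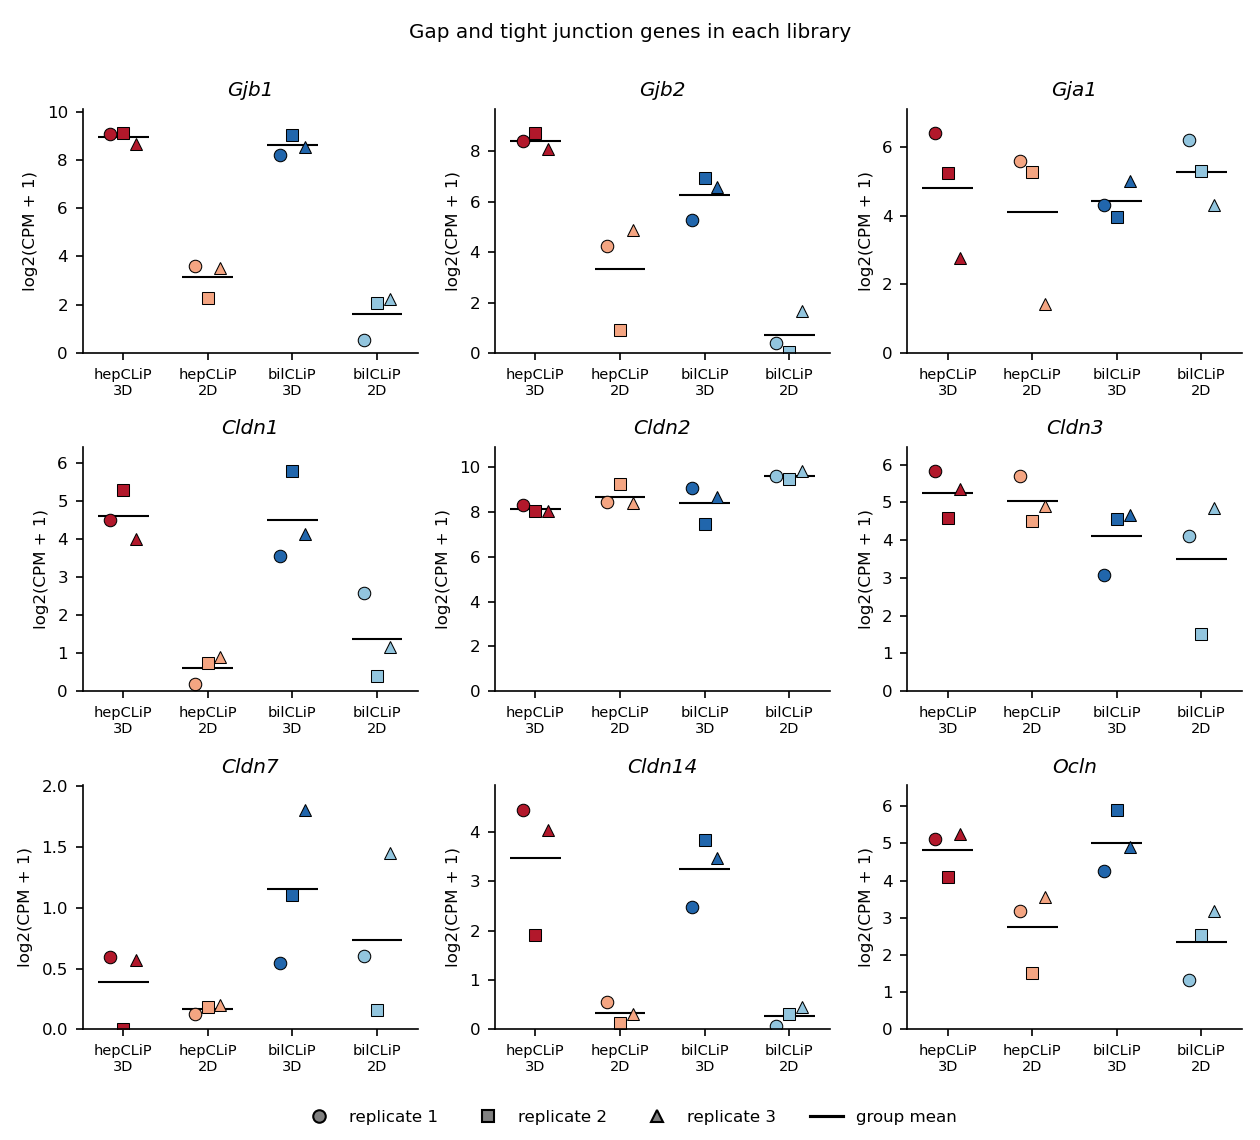
Level of each gene in each library, as log2(CPM + 1) on the vertical axis, with the 4 groups on the horizontal axis. Symbols are replicates and lines are means of the 3 plotted values. Gjb1, Gjb2, Cldn14 and Ocln show 3D libraries above all 2D libraries of the same origin, as does Cldn1, whereas Gja1 and Cldn3 show overlapping groups.

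Gjb1, the main connexin of hepatocytes, had 541, 551 and 401 CPM in hepCLiP 3D libraries (replicates 1 to 3), against 11.2, 3.91 and 10.5 CPM in hepCLiP 2D. In bilCLiP it had 297, 524 and 373 CPM in 3D, against 0.474, 3.19 and 3.78 CPM in 2D. Every 3D library thus lay far above every 2D library, and bilCLiP 2D replicate 1 was lowest. The log2 fold change was 5.86 ± 0.668 in hepCLiP (SE, adjusted p = 0.000189) and 7.32 ± 0.720 in bilCLiP (adjusted p = 0.000103). As a ratio of group means these were 58.2-fold and 160-fold. The difference between the 2 culture effects was 1.46 ± 0.792 on the log2 scale (unadjusted p = 0.0934), which was not called.

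Gjb2, the second hepatocyte connexin, had 342, 418 and 269 CPM in hepCLiP 3D, against 17.9, 0.864 and 28.4 CPM in hepCLiP 2D. In bilCLiP it had 37.2, 122 and 93.8 CPM in 3D, against 0.302, 0.0389 and 2.14 CPM in 2D. The cultures did not overlap in either origin, and the 2D libraries spread widely, replicate 2 being lowest in each. Gjb2 rose with a log2 fold change of 4.45 ± 1.10 in hepCLiP (adjusted p = 0.0101) and 6.70 ± 1.28 in bilCLiP (adjusted p = 0.00319). Of the 9 genes it also had the widest gap between origins in 2D, although the 2D libraries of the origins overlapped. Its bilCLiP 2D values rest on 55 counts summed over 3 libraries. All 3 bilCLiP 3D libraries lay below all 3 hepCLiP 3D libraries, with a log2 fold change of bilCLiP over hepCLiP of -2.02 ± 0.988 (adjusted p = 0.331). In 2D it was -4.28 ± 1.19 (unadjusted p = 0.00447, adjusted p = 0.194), not called by edgeR but called by DESeq2 (-4.24, adjusted p = 0.0260).

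Gja1, the connexin of many stromal and dividing cells, had 83.8, 37.3 and 5.77 CPM in hepCLiP 3D, against 47.2, 38.1 and 1.70 CPM in hepCLiP 2D. In bilCLiP it had 19.0, 14.5 and 31.5 CPM in 3D, against 73.6, 38.7 and 19.0 CPM in 2D. The cultures overlapped in both origins, and hepCLiP replicate 3 was low in 3D and in 2D alike. The log2 fold change was 0.54 ± 1.02 in hepCLiP (adjusted p = 0.711) and -1.01 ± 1.03 in bilCLiP (adjusted p = 0.496), and neither was called. The hepCLiP value was -0.36 without hepCLiP 3D replicate 1 and -0.01 without hepCLiP 2D replicate 3. The library highest in Gja1, hepCLiP 3D replicate 1, also held 282 CPM of the fibroblast gene Dcn, against at most 17.8 CPM elsewhere. Col1a1, the next highest fibroblast marker in that library, was at 1.17 CPM. In bilCLiP 2D replicate 1, with 73.6 CPM of Gja1, Dcn was at 0 CPM. The 7 fibroblast markers summed to 4.52 to 284 CPM in hepCLiP 3D and 0.818 to 4.63 CPM in hepCLiP 2D, and to 6.60 to 19.1 CPM in bilCLiP 3D and 0.156 to 1.73 CPM in bilCLiP 2D. Among them Lum was at 0 in both 2D groups, and their part in the Gja1 value was not tested.

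Per transcript length, the makeup of the connexin family differed between the cultures. Over all 20 connexin genes the summed level, in CPM per kilobase of the longest coding transcript, was 476 ± 95.4 in hepCLiP 3D and 52.6 ± 27.5 in hepCLiP 2D (SD, n = 3 each). It was 299 ± 91.2 in bilCLiP 3D and 69.3 ± 26.6 in bilCLiP 2D. Gjb1 made up 66.2% ± 2.54 of the total in hepCLiP 3D and 15.2% ± 14.2 in hepCLiP 2D, and 84.5% ± 4.44 in bilCLiP 3D and 2.11% ± 1.45 in bilCLiP 2D. Gjb2 made up 29.9% ± 2.23 in hepCLiP 3D and 22.4% ± 28.6 in hepCLiP 2D, and 11.2% ± 3.34 in bilCLiP 3D and 0.546% ± 0.698 in bilCLiP 2D. Gja1 held 2.58% ± 2.33 in hepCLiP 3D and 14.2% ± 10.9 in hepCLiP 2D, and 2.46% ± 1.15 in bilCLiP 3D and 24.7% ± 24.2 in bilCLiP 2D. The Gja1 shares depend on the transcript length used. With the merged exons of all its transcripts they were 0.865% in hepCLiP 3D and 5.20% in hepCLiP 2D, and 0.829% in bilCLiP 3D and 11.1% in bilCLiP 2D. These shares are descriptions, with no test. In hepCLiP 2D replicate 3, Gjb2 held 54.7% of the connexin level.

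**Figure D2:**
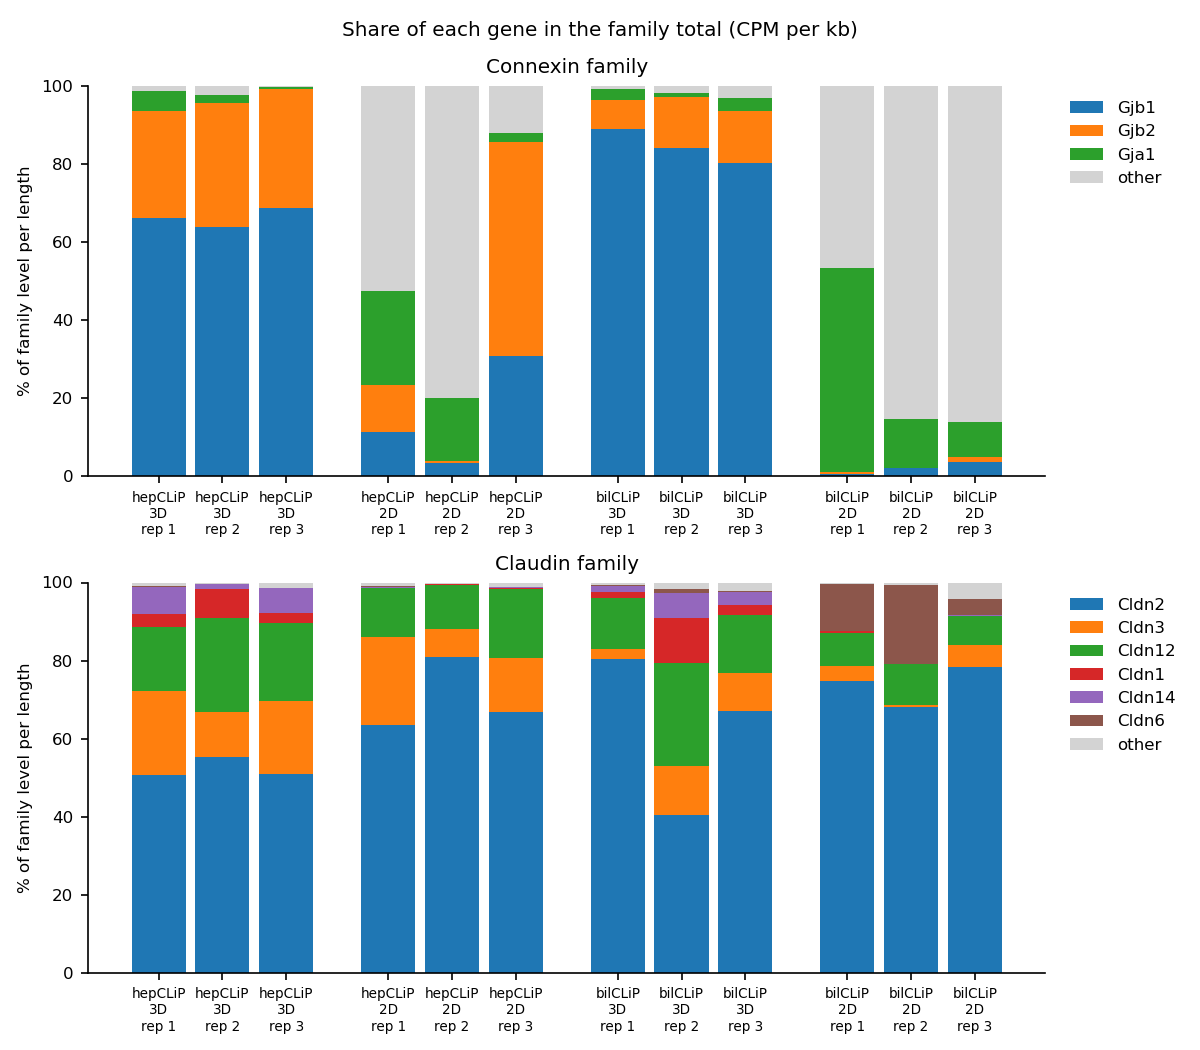
Share of each gene in the summed level of its family in each library, as percent of CPM per kilobase, for 20 connexin genes (top) and 23 claudin genes (bottom). Bars are single libraries in groups of 3. Gjb1 fills 63.8% to 68.8% of the connexin bar in hepCLiP 3D and 80.2% to 89.1% in bilCLiP 3D, and Cldn2 is the largest part of every claudin bar.

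Cldn1, a barrier-forming claudin, had 21.7, 38.0 and 15.1 CPM in hepCLiP 3D, against 0.139, 0.682 and 0.849 CPM in hepCLiP 2D. In bilCLiP it had 10.8, 53.9 and 16.5 CPM in 3D, against 5.04, 0.311 and 1.23 CPM in 2D. No libraries of the 2 cultures overlapped, and bilCLiP 2D replicate 1 lay nearest to its same-numbered 3D library. The log2 fold change was 5.48 ± 1.08 in hepCLiP (adjusted p = 0.00308) and 3.62 ± 0.953 in bilCLiP (adjusted p = 0.0157). In bilCLiP the call did not survive leaving out 3D replicate 2 (2.64, adjusted p = 0.0684) or 2D replicate 3 (3.34, adjusted p = 0.0573), nor a fit with no filter on low counts (3.59, adjusted p = 0.0638).

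Cldn14, also a barrier-forming claudin, was near absent in 2D. It had 20.9, 2.77 and 15.4 CPM in hepCLiP 3D, against 0.463, 0.0909 and 0.250 CPM in hepCLiP 2D, and 4.55, 13.2 and 10.1 CPM in bilCLiP 3D, against 0.0431, 0.233 and 0.365 CPM in bilCLiP 2D. Summed over the 3 libraries the 2D values rest on 17 counts in hepCLiP and 15 in bilCLiP, and the groups did not overlap. It rose by log2 5.57 ± 0.921 in hepCLiP (adjusted p = 0.00125) and 5.41 ± 0.922 in bilCLiP (adjusted p = 0.00172).

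Ocln had 33.5, 16.2 and 37.0 CPM in hepCLiP 3D, against 8.00, 1.86 and 10.7 CPM in hepCLiP 2D, and 18.0, 58.9 and 29.1 CPM in bilCLiP 3D, against 1.51, 4.82 and 8.11 CPM in bilCLiP 2D. Again no 3D library fell within the range of the 2D libraries of its origin. The log2 fold change was 2.08 ± 0.720 in hepCLiP (adjusted p = 0.0452) and 2.88 ± 0.742 in bilCLiP (adjusted p = 0.0142). The hepCLiP call lay close to the threshold. It was lost in 7 of 12 fits that left out 1 library, with adjusted p of 0.0878 without hepCLiP 3D replicate 1, 0.108 without 3D replicate 3, 0.0858, 0.106 and 0.0505 without hepCLiP 2D replicates 1, 2 and 3, 0.0616 without bilCLiP 3D replicate 3 and 0.0593 without bilCLiP 2D replicate 2. Without bilCLiP 3D replicate 2 the bilCLiP call was lost as well (2.29, adjusted p = 0.0570). With no filter on low counts both Ocln calls were lost, at adjusted p of 0.137 in hepCLiP and 0.0562 in bilCLiP.

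Cldn2, the pore-forming claudin, was lower in 3D. It had 316, 262 and 263 CPM in hepCLiP 3D, against 346, 597 and 332 CPM in hepCLiP 2D, and 531, 176 and 406 CPM in bilCLiP 3D, against 771, 696 and 894 CPM in bilCLiP 2D. The 3D library was the lower one in all 6 same-numbered pairs, and the groups did not overlap in either origin. Cldn2 fell in bilCLiP (log2 -1.09 ± 0.357, adjusted p = 0.0407), and its value in hepCLiP was -0.60 ± 0.354 (adjusted p = 0.214). The bilCLiP call was lost in 9 of the 12 fits that left out 1 library, with adjusted p from 0.0217 to 0.105 over the 12, and in the fit of bilCLiP alone (0.0837). The libraries whose loss ended it were all 3 of hepCLiP 3D (0.0556, 0.0541 and 0.0548), hepCLiP 2D replicate 1 (0.0508), bilCLiP 3D replicates 2 and 3 (0.0847 and 0.0821) and all 3 of bilCLiP 2D (0.0772, 0.0639 and 0.105).

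Cldn3 and Cldn7 were not called. Cldn3, a claudin of both hepatocytes and bile ducts, had 55.4, 22.8 and 39.7 CPM in hepCLiP 3D, against 51.1, 21.6 and 28.8 CPM in hepCLiP 2D, and 7.44, 22.7 and 24.3 CPM in bilCLiP 3D, against 16.4, 1.87 and 27.7 CPM in bilCLiP 2D. The groups overlapped in each origin, and the log2 fold changes were 0.22 ± 0.750 and 0.25 ± 0.756. Its exons share 40 bases (3.2%) with the gene Wbscr25 on the other strand, and without a stated strand setting these reads cannot be told apart. Cldn7 was barely detected, with 14 counts summed over hepCLiP 3D and 8 over hepCLiP 2D, and 70 over bilCLiP 3D and 53 over bilCLiP 2D, and its log2 fold changes were 1.36 ± 1.20 in hepCLiP and 0.805 ± 0.973 in bilCLiP.

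**Figure D3:**
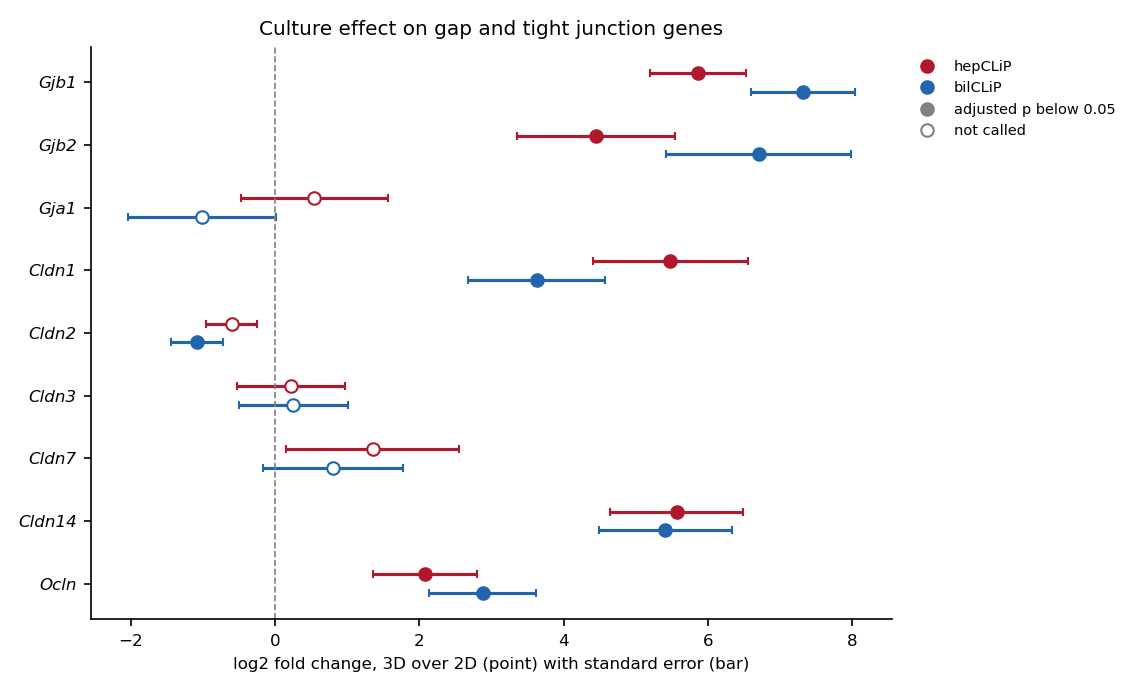
Log2 fold change of 3D over 2D culture (horizontal axis) for each gene, with its standard error, in hepCLiP (red) and bilCLiP (blue). Filled points have an adjusted p below 0.05. Gjb1, Gjb2, Cldn1, Cldn14 and Ocln lie right of 0 in both origins, and Cldn2 lies left of 0 in both, filled in bilCLiP.

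Levels of different genes were set side by side per transcript length. In hepCLiP 3D the order was Gjb1 at 314 ± 52.9 CPM per kilobase, Gjb2 at 143 ± 31.1, Cldn2 at 92.1 ± 10.3 and Cldn3 at 31.2 ± 12.9, and the libraries of these 4 did not overlap. Gja1, Cldn14, Cldn1 and Ocln followed at 13.3 to 7.13 with overlapping ranges, that of Gja1 also reaching into that of Cldn3, and Cldn7 was last at 0.250. In hepCLiP 2D Cldn2 led at 140 ± 49.0, ahead of Cldn3 at 26.9 ± 12.2, and the ranges of Gja1, Gjb2 and Gjb1, at 9.11 to 5.39, overlapped. In bilCLiP 3D Gjb1 led at 251 ± 72.9, ahead of Cldn2 at 122 ± 59.2, with Gjb2 at 35.1 ± 18.0 and Cldn3 at 14.4 ± 7.40 overlapping each other. In bilCLiP 2D Cldn2 stood alone at 259 ± 32.7, ahead of Gja1 at 13.8 ± 8.70 and Cldn3 at 12.2 ± 10.3, which overlapped, and Gjb2 and Cldn14 were lowest at 0.344 and 0.147. In both origins Gjb1 thus came first in 3D and Cldn2 in 2D.

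The claudin family total differed less between cultures than the connexin total. Over 23 claudin genes it was 177 ± 25.3 CPM per kilobase in hepCLiP 3D and 195 ± 41.6 in hepCLiP 2D, and 186 ± 38.5 in bilCLiP 3D and 350 ± 22.0 in bilCLiP 2D. Cldn2 made up 52.3% ± 2.48 of it in hepCLiP 3D and 70.4% ± 9.32 in hepCLiP 2D, and 62.6% ± 20.4 in bilCLiP 3D and 73.7% ± 5.19 in bilCLiP 2D. Cldn1 held 4.51% ± 2.62 in hepCLiP 3D and 0.0902% ± 0.0682 in hepCLiP 2D, and 5.22% ± 5.53 in bilCLiP 3D and 0.196% ± 0.230 in bilCLiP 2D. The largest claudin outside the 9 was Cldn12 in 3 of the 4 groups, with 20.1% ± 3.83 in hepCLiP 3D and 13.9% ± 3.38 in hepCLiP 2D. Cldn6, a claudin of embryonic epithelia, held 0.518% ± 0.518 in bilCLiP 3D and 12.1% ± 7.87 in bilCLiP 2D.

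Between the origins, no junction gene was called. The RosaConfetti genotype occurred only among hepCLiP libraries, so origin and reporter genotype cannot be fully told apart in these comparisons. Of the 9 genes 0 were called in 3D, where 0.101% of all genes were (0.0541% higher and 0.0473% lower), and 0 in 2D, where 0.135% were (0.0811% higher and 0.0541% lower), by edgeR's quasi-likelihood test. At an unadjusted p below 0.05 the 9 genes gave 0 in 3D, beside 2461 of all 14798 genes, and 4 in 2D, beside 2146. DESeq2 called 0 in 3D and 1, Gjb2, in 2D. The 4 in 2D were Gjb1, Gjb2, Cldn2 and Cldn7. Gjb1 had 2.48 ± 1.76 CPM in bilCLiP 2D and 8.55 ± 4.03 CPM in hepCLiP 2D (log2 -1.78 ± 0.589, unadjusted p = 0.0119, adjusted p = 0.235). Cldn2 had 787 ± 99.7 CPM in bilCLiP 2D and 425 ± 149 CPM in hepCLiP 2D (log2 0.89 ± 0.356, unadjusted p = 0.0300, adjusted p = 0.296). Cldn7 had 0.788 ± 0.841 CPM in bilCLiP 2D and 0.126 ± 0.0300 CPM in hepCLiP 2D (log2 2.57 ± 1.13, unadjusted p = 0.0441, adjusted p = 0.332). Libraries of the origins did not overlap for 1 gene in 3D, Gjb2, and for 2 in 2D, Gjb1 and Cldn2, beside 21.8% and 21% of all genes.

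The culture effect itself was compared between bilCLiP and hepCLiP by the interaction term, whose 2 sides share no library. None of the 9 genes was called, nor was any of the 14798 genes (0%), and 0 of the 9 against 532 of all genes had an unadjusted p below 0.05. Beside Gjb1 above, the differences of bilCLiP over hepCLiP were 2.26 ± 1.49 for Gjb2 (unadjusted p = 0.158), -1.85 ± 1.31 for Cldn1 (unadjusted p = 0.185) and -1.56 ± 1.45 for Gja1 (unadjusted p = 0.306) on the log2 scale. These standard errors leave room for sizeable differences, and the tests do not show that the origins responded alike.

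The other genes of these contacts were read from 6 lists of junction genes. Of 20 other connexins and pannexins 5 passed the low-count filter, with 1 called higher and 2 lower in hepCLiP and 1 higher and 1 lower in bilCLiP (median log2 fold change -2.29 and -2.81). Panx1, a channel-forming pannexin, had 17.3 ± 6.16 CPM in hepCLiP 3D and 34.8 ± 7.14 CPM in hepCLiP 2D (log2 -1.01 ± 0.321, adjusted p = 0.0311). Gjc1, lower in hepCLiP, and Gjc3, higher in both, were also called. Both are under 5 CPM and are named after their values were seen. For Gjc3, the hepCLiP 3D libraries summed to 92 counts and the hepCLiP 2D libraries to 0, which is at least 46.3-fold higher when 3 counts summed over the group are taken as the floor.

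Of 19 other claudins 5 passed the filter, with 0 called in hepCLiP and 1 lower in bilCLiP (medians -0.35 and -0.26). That gene was Cldn6, at 1.36 ± 1.08 CPM in bilCLiP 3D and 67.3 ± 41.6 CPM in bilCLiP 2D (log2 -5.61 ± 1.10, adjusted p = 0.00357). Cldn12 did not pass the test, with means of 131 CPM in hepCLiP 3D and 99.1 CPM in hepCLiP 2D. Other tight junction membrane proteins gave 2 higher and 1 lower of 9 tested in each origin (medians 0.16 and 0.19). Marveld2, or tricellulin, which seals the points where 3 cells meet, rose by 0.78 ± 0.214 in hepCLiP (adjusted p = 0.0162) and 0.88 ± 0.214 in bilCLiP (adjusted p = 0.0109). The adhesion receptor Cxadr rose in hepCLiP (0.52 ± 0.155), Lsr, which recruits tricellulin, rose in bilCLiP (0.60 ± 0.205), and the adhesion molecule Jam2 fell in both (-1.54 ± 0.498 in hepCLiP and -2.41 ± 0.489 in bilCLiP).

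On the cytoplasmic side of the tight junction, 15 genes of the plaque and of cell polarity were tested. Of these 15 genes 2 were called higher and 6 lower in hepCLiP, and 2 higher and 5 lower in bilCLiP (medians -0.47 and -0.31). Tjp3, a scaffold of the zonula occludens family, rose by 1.48 ± 0.414 in hepCLiP and 1.92 ± 0.421 in bilCLiP, and the polarity protein Crb3 rose by 0.75 ± 0.267 in hepCLiP and 1.30 ± 0.270 in bilCLiP. Its sister scaffold Tjp1 fell by 0.59 in hepCLiP and by 0.56 in bilCLiP, chosen after its values were seen. Prkci, an atypical protein kinase C of the polarity complex, had 47.9 ± 8.09 CPM in hepCLiP 3D and 121 ± 17.8 CPM in hepCLiP 2D (log2 -1.33 ± 0.142, adjusted p = 0.000138), and in bilCLiP its log2 fold change was -1.32 ± 0.142. The scaffold Magi3 fell with -1.12 ± 0.167 in hepCLiP and -0.71 ± 0.166 in bilCLiP.

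Adherens junction genes gave 2 higher and 4 lower of 10 tested in hepCLiP, and 2 higher and 5 lower in bilCLiP (medians -0.68 and -0.63). Nectin1, an immunoglobulin-like adhesion molecule, rose by 2.13 ± 0.524 in hepCLiP and 2.41 ± 0.536 in bilCLiP. Cdh2, or N-cadherin, fell with -1.45 ± 0.217 in hepCLiP and -1.59 ± 0.217 in bilCLiP. Ctnnb1, beta-catenin, which links cadherins to the cytoskeleton, had -1.11 ± 0.275 in hepCLiP and -0.94 ± 0.274 in bilCLiP, and Cdh3, or P-cadherin, had -3.58 ± 0.926 in bilCLiP. Desmosome genes gave 3 higher and 3 lower of 10 in hepCLiP, and 2 higher and 3 lower in bilCLiP (medians -0.20 and 0.08). The desmosomal cadherin Dsc2 rose by 4.11 ± 0.798 in hepCLiP and 3.65 ± 0.773 in bilCLiP, while Ppl (periplakin) fell with -2.75 ± 0.362 and -2.11 ± 0.353, and Perp, a desmosomal membrane protein, with -1.61 ± 0.350 and -1.27 ± 0.346. No gene of the 6 lists was called between origins or for the difference of culture effects.

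**Figure D4:**
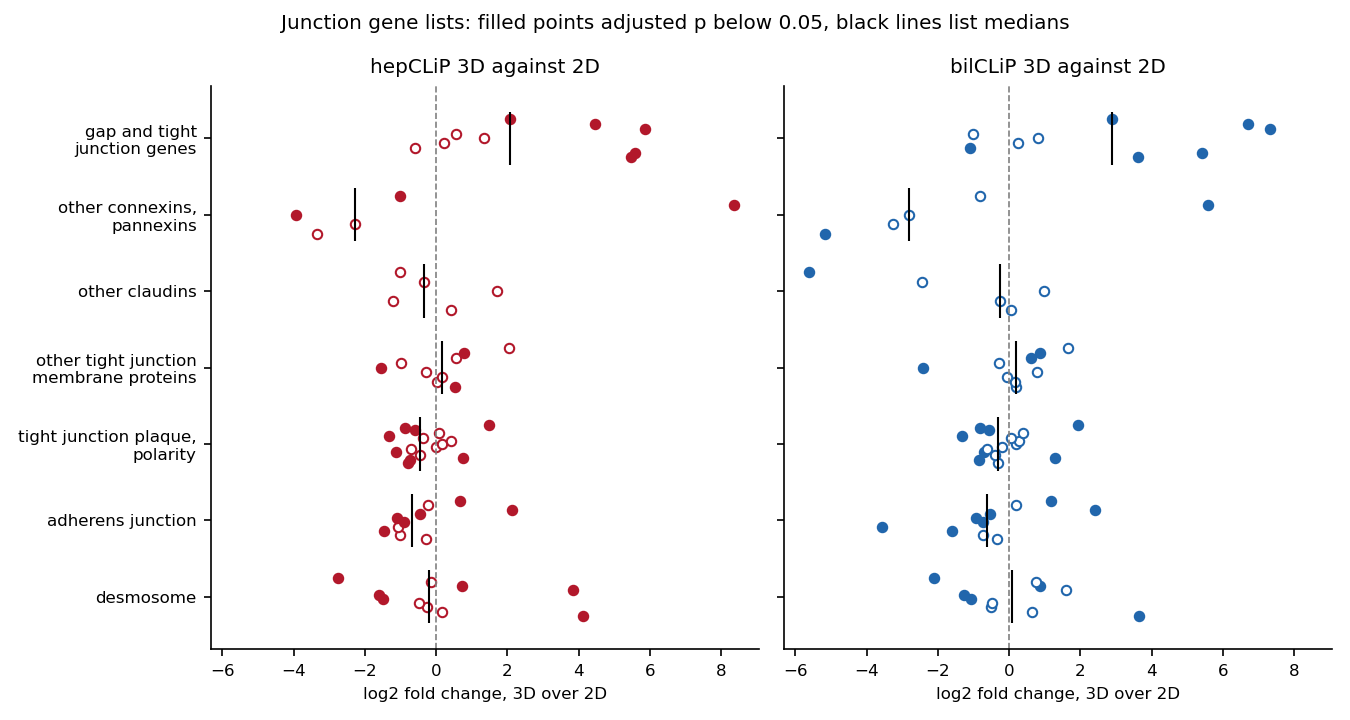
Log2 fold change of 3D over 2D culture (horizontal axis) for the tested genes of each list (rows), in hepCLiP (left) and bilCLiP (right). Points are genes, filled at an adjusted p below 0.05, and black lines are medians. The 9 genes have medians of 2.08 and 2.88, and the medians of the other lists lie between -2.81 and 0.19.

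The genes whose pattern over the 12 libraries lay nearest to each junction gene were found among 10776 genes by the root mean square difference of centred log2(CPM + 1), as a description. Nearest to Gjb1 were Cyp2d26, at 0.388 log2 units, F2 (prothrombin) at 0.458 and Tmprss6 at 0.468. F2 had 1814 ± 285 CPM in hepCLiP 3D and 44.4 ± 31.0 CPM in hepCLiP 2D. Nearest to Gjb2 were Apoe (0.554), Prg4 (0.851) and Tmprss6 (0.901). For Cldn1 they were Gpld1 (0.477), Dsc2 (0.606) and Treh (0.627), for Cldn14 Gstk1 (0.446), Cyp2c67 (0.486) and Tmc7 (0.501), and for Ocln Tcea3 (0.400), Gstt1 (0.407) and Pipox (0.480). Cyp2d26 and Cyp2c67 belong to families whose copies can share reads. For Cldn2 they were Asah1 (0.338), Fut8 (0.355) and Enc1 (0.363), and Asah1, acid ceramidase, had 167 ± 18.3 CPM in hepCLiP 3D and 266 ± 48.2 CPM in hepCLiP 2D, and 212 ± 17.8 CPM in bilCLiP 3D and 418 ± 27.0 CPM in bilCLiP 2D. The nearest gene lay farther away for Gja1 and Cldn3 than for the other 7, with Igsf9b (0.661), Lipo3 (0.772) and Stc2 (0.781) for Gja1, and Tmem254a (0.681), Anxa6 (0.715) and Jund (0.751) for Cldn3. The neighbours of Cldn7, Dnal1 (0.289), Ifi47 (0.300) and Cetn2 (0.301), follow a gene that hardly varied on this scale.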

How the data were processed

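RNA was measured by bulk RNA-seq in 12 libraries. The authors deposited raw gene counts and a normalized table (unit signal). In that deposited signal table each sample's values equal its counts divided by 1 constant. STAR 2.7.10b, featureCounts 2.0.1, DESeq2 and GRCm39 are named in the submitters' processing notes. For the annotation and strand setting, not given in the sources used here, nothing was assumed.

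Counts were fitted in R 4.3.3 with edgeR 4.0.16 (filterByExpr, TMM, robust glmQLFit and glmQLFTest) with 4 group means over all libraries, and p-values were Benjamini-Hochberg adjusted over all 14798 genes tested. CPM use TMM effective library sizes, and each standard error is the absolute log2 fold change over the root of F. The test was also run on simulated counts drawn from hepCLiP 2D means, with far fewer genes changed than were called between cultures. That run does not show how the test behaves on these data. The alternatives were limma 3.58.1, DESeq2 1.42.0, other scalings and filters, a 2-fold threshold, a genotype term, a replicate block and leaving out each library. Levels per length use the longest coding transcript of GENCODE M21, which is GRCm38, so they are approximate.

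Same-numbered libraries of one origin shared deviations from group means (correlations 0.432 to 0.513, against -0.366 to -0.028 for other numbers), so numbers pair cultures within an origin. Across origins the same-number correlations were 0.022 to 0.15.

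The junction genes, the lists and the tests were chosen with earlier results of these data known, and the motifs after the promoter sequences were seen. Named were all 9 genes and, per list and culture comparison, up to 3 called genes with the largest changes that averaged 5 CPM or more in either group. Results for some of these are not reported here. The floor of 3 counts allows for counting error alone, since PCR duplicates are not separate molecules.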

Additional observations from a re-analysis of the deposited data

How the results depend on the processing

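For all 9 genes and both culture comparisons, the calls of Gjb1, Gjb2 and Cldn14 held in all 22 alternatives at an adjusted p of 0.05, as did that of Cldn1 in hepCLiP. The 2-fold test is not among these 22 and is given below only as numbers of genes called. With the replicate block 5 junction genes were called in hepCLiP and 6 in bilCLiP, as without it. The block changed no junction gene's call. Of all genes it called 6973 in hepCLiP and 6383 in bilCLiP, against 5139 and 4485 without it. Between origins, terms for the replicate number shared by both origins were fitted instead, and 44 genes in 3D and 62 in 2D were called. The counts of all genes called changed with the tool. Between origins in 3D the count was 15, against 575 with DESeq2, 26 with limma on the authors' table, 3 with only the groups compared, 7 with the 2-fold test and 3 to 251 with a library left out. In 2D it was 20, against 467, 39, 5, 5 and 6 to 31 under the same alternatives. For the difference of culture effects it was 0, against 12 with DESeq2 and 0 to 3 with a library left out. The 2-fold test called 1492 genes in hepCLiP and 1290 in bilCLiP, and leaving out a library gave 4133 to 5227 and 3088 to 4555. With no filter on low counts 4 junction genes were called in each origin. Of the junction genes the 2-fold test called 4 in hepCLiP and 3 in bilCLiP, leaving out a library gave 3 to 6 there, and DESeq2 called 1 between origins in 2D.

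No called value changed sign. Among values not called, signs turned as follows on the log2 scale. The difference of culture effects was -0.012 for Cldn3 with DESeq2's size factors and -0.015 with DESeq2, 0.71 for Cldn7 and 0.27 for Cldn14 with voom, and 0.50 and 0.11 on the authors' table. Cldn1 between origins in 3D was -0.092 with voom, -0.13 on the authors' table and -0.36 with the genotype term. That term also gave 1.60 in 3D and 1.65 in 2D for Cldn14, and 0.87 for Ocln in 2D. With a library left out, the ranges that cross 0 were, for 3D against 2D in hepCLiP, -0.36 to 1.09 for Gja1 and -0.043 to 0.64 for Cldn3, and in bilCLiP -0.27 to 1.00 for Cldn3. Between origins in 3D they were -0.87 to 0.56 for Cldn1, -0.96 to 0.020 for Cldn14 and -0.30 to 0.59 for Ocln, and in 2D -0.0089 to 1.13 for Gja1 and -0.89 to 0.33 for Cldn14. For the difference they were -0.49 to 0.79 for Cldn3, -1.31 to 0.75 for Cldn7 and -0.81 to 0.41 for Cldn14. The cause of these changes was not tested. Using merged exon lengths, an alternative chosen after seeing the data, Gjb1 made up 65.8% of the connexin level in hepCLiP 3D and 15.7% in hepCLiP 2D, and 85.1% in bilCLiP 3D and 2.23% in bilCLiP 2D. Gja1 in bilCLiP 3D, at 0.829% in place of 2.46%, was the share that moved by more than the spread between its replicates. Cldn7 and the 2D values of Cldn14 rest on few counts. So do Cldn1 in hepCLiP 2D, with 35 counts summed over its libraries, and Gjb2 in bilCLiP 2D, with 55.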
